A study of Homo sapiens with 6 samples.

Results

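Megakaryocyte and platelet genes were followed in K562, an established human line from a patient with chronic myelogenous leukaemia. The set held 34 genes, listed by name and grouped by role into 15 surface receptors, 9 granule genes, 7 cytoskeletal genes and 3 signalling adaptors. A member was read from array probe sets whose platform annotation gave 1 symbol. On that basis 33 of the 34 members, with 73 probe sets, were found among 19775 named genes. The exception was GP1BB, whose 2 probe sets carry several symbols and were not named. Of the 33, 21 members were bright enough to be tested (called measured from here on), against 12810 genes in all.

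Megakaryocytes are the bone marrow cells that shed platelets. They build a set of adhesion receptors, fill alpha and dense granules with clotting proteins and small molecules, and push out proplatelets along bundles of microtubules. K562 cells carry the BCR-ABL1 fusion kinase, resemble early red cell precursors, and are widely used as a model that can be turned towards the megakaryocyte lineage with phorbol esters. Factors of the GATA, ETS, RUNX and NF-E2 families drive many of these genes.

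Triplicate wells seeded with 500000 to 800000 cells per mL received the vehicle DMSO (the control group, 3 arrays) or 25 nM CA (the treated group, 3 arrays), and all were harvested after 3 h. CA stands for cortistatin A in the series title, a compound known to block CDK8 and CDK19, kinases of the Mediator complex. Both groups are wells of a single cell line with no other agent named, so the p values measure the spread between wells, which may be technical. The labels name 2 RNA extraction kits without saying which sample had which. Total RNA was hybridised to Affymetrix U133 Plus arrays, and values are log2 signals after RMA, a method that sets all arrays to a common distribution.

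The 6 arrays correlated at 0.997 with one another, and CA array 1 lay apart on the second principal component, at -19.0 against 0.338 to 7.20 for the others. Of the 8 red cell markers with a probe set 7, among them HBE1, HBZ, KLF1 and TFRC, were above the baseline threshold defined below. Above it were also 3 of 9 T cell markers (CD3D, CD5 and ZAP70), 1 of 5 B cell markers (CD79A), 1 of 8 monocyte markers (LYZ), 2 of 8 endothelial markers (ROBO4 and EGFL7) and 3 of 10 fibroblast and smooth muscle markers (COL1A1, COL1A2 and TAGLN). The endothelial markers CDH5, KDR and TEK and the T cell markers CD3E and CD3G were not above it. The mean level of the T cell list ran from 4.06 to 4.08 on the DMSO arrays and from 4.03 to 4.15 on the CA arrays. The mean level of the endothelial list ran from 3.29 to 3.44 on DMSO and from 3.30 to 3.36 on CA arrays. The red cell list was at 8.47 to 8.49 on DMSO and 8.50 to 8.53 on CA arrays, and the B cell, monocyte and fibroblast lists overlapped between the groups (3.94 to 4.07 and 4.02 to 4.11, 3.50 to 3.59 and 3.58 to 3.60, 4.20 to 4.27 and 4.19 to 4.27). In bulk RNA, fewer cells with a transcript and less of it per cell cannot be told apart.

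At baseline, K562 cells gave a signal for most of the cytoskeletal members and for few of the receptors and granule proteins. RMA values hold no detection call, so a threshold was taken from 72 probe sets of 42 genes restricted to tissues such as retina, lens, sperm, liver and skin. Its value was 4.51 on the log2 scale, the 95th percentile of their means on the DMSO arrays. Of the 72, 4 lay above it, the highest TNNI3 at 8.02, so a signal above the threshold is not proof of a transcript. A member counted as expressed when at least 1 of its probe sets lay above that value on all 3 DMSO arrays. By this rule 11 of 33 members were expressed, where 49.7% of all named genes were. They were 6 of 7 cytoskeletal genes (TUBB1, FERMT3, ZYX, TLN1, VCL and ARHGAP6), 3 of 14 receptors (ITGA2B, GP6 and GP9), 2 of 9 granule genes (SRGN and RAB27B) and 0 of 3 signalling adaptors. Probe sets differ in how strongly they bind their targets, so the level of a member was not compared with that of another member. The same limit applies to the threshold, which comes from probe sets of other genes.

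**Figure D1:**
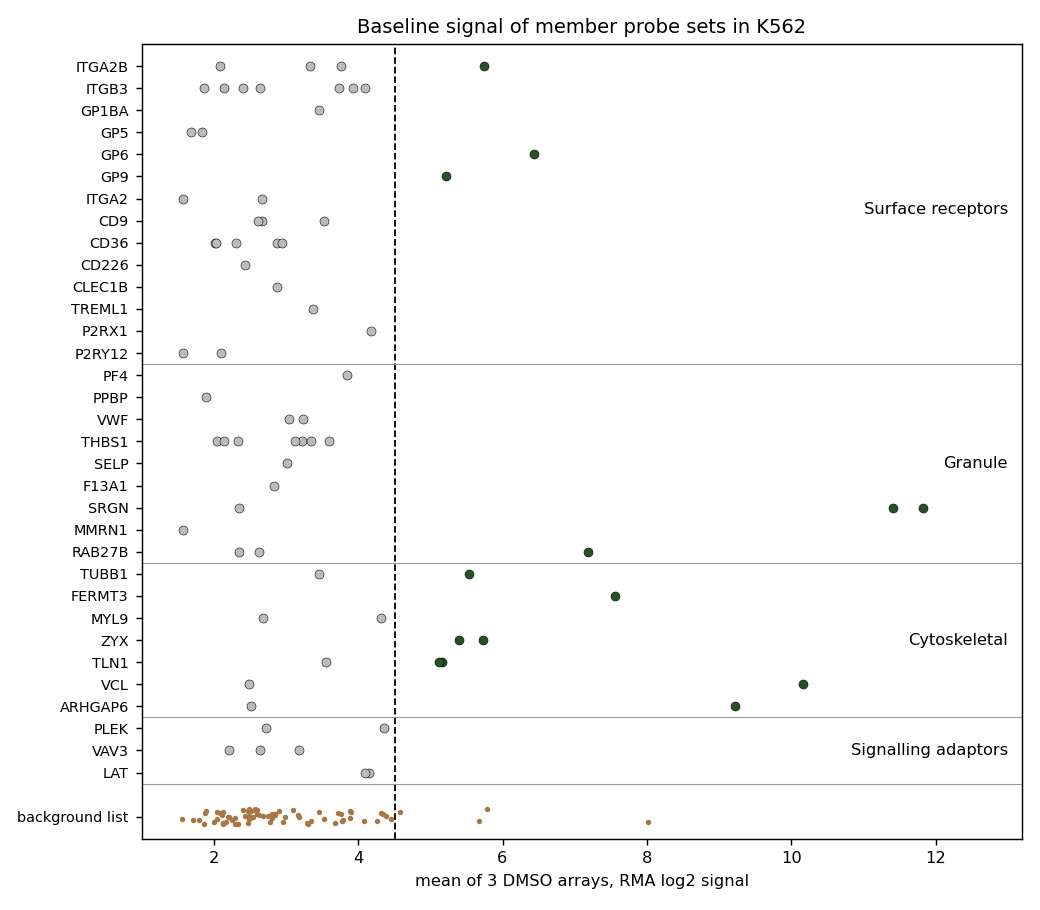
Each point is a probe set, placed at its mean over the 3 DMSO arrays (RMA log2 signal, horizontal axis) on the line of its gene, with the 72 probe sets of the background list in the bottom line and the threshold of 4.51 as a dashed line. The 14 dark points are the probe sets above the threshold on all 3 DMSO arrays, and 8 of them belong to cytoskeletal members.

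The threshold decided part of this count. With the 99th percentile of the background list, 6.43, 5 members remained expressed (SRGN, RAB27B, FERMT3, VCL and ARHGAP6). With the median of all probe sets 17 were expressed, adding ITGB3, P2RX1, PF4, MYL9, PLEK and LAT. Nearest to the threshold from above was TLN1, with DMSO values of 4.98, 5.39 and 5.13. Nearest from below was PLEK, with 4.24, 4.33 and 4.52, of which 1 array passed. Without the probe sets marked _s_at or _x_at, which may bind several transcripts, 6 members stayed expressed, and GP6, GP9, ZYX, VCL and ARHGAP6 were lost because they have no unshared probe set above the threshold.

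None of the 21 measured members was called after 3 h of CA, where called means a limma p adjusted by Benjamini-Hochberg under 0.05 over all 27307 tested probe sets. Across all measured genes 0.0859% were called, 0.0625% upward, so a count of 0 among 21 does not set the members apart. At an unadjusted p under 0.05 there were 2 members, RAB27B and TUBB1, which is 9.52% of 21 against 8.61% of all measured genes. Both were higher in CA, where 3.59% of all measured genes were at that p and higher. When limma's variance prior was let vary with signal, 0 members were called as well. The changes were small: the 95% confidence intervals of all 11 expressed members lay inside 1.5-fold in both directions, and those of 8 of them inside 1.3-fold. Among the 21 measured members, 20 had intervals inside 1.5-fold, and the exception was TREML1, a dim probe set.

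The surface receptors carry platelets onto collagen, von Willebrand factor and fibrinogen. ITGA2B encodes the alpha IIb chain of the fibrinogen receptor and is an early mark of the megakaryocyte lineage. Of its 4 probe sets 1 was above the threshold, and the others had DMSO means of 3.34, 3.76 and 2.09. The 1 above it had 5.59, 5.78 and 5.86 on the DMSO arrays and 5.70, 5.76 and 5.67 on the CA arrays. The CA values fell inside the range of the DMSO values, and the log2 change was -0.03 (95% confidence interval -0.21 to 0.15, adjusted p = 0.940). The partner chain gene, ITGB3, was not above the threshold on any of its 7 probe sets. On the probe set that represents it the values were 4.31, 4.04 and 3.94 with DMSO and 4.10, 4.16 and 4.15 with CA, a change of 0.04 (-0.19 to 0.27). Another 2 ITGB3 probe sets had all CA arrays above all DMSO arrays. Their changes in the mean were 0.16 and 0.08, at adjusted p of 0.553 and 0.628 (limma). Over the 30 tested probe sets of members, 5 had groups that did not overlap, all higher in CA, where 15.6% of all tested probe sets did not overlap in either direction.

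GP6, the collagen receptor glycoprotein VI, and GP9, a chain of the receptor for von Willebrand factor, were the other receptors above the threshold. GP6 had 6.40, 6.37 and 6.55 on DMSO and 6.48, 6.43 and 6.36 on CA arrays, with a change of -0.02 (-0.17 to 0.13). GP9 had 5.43, 5.18 and 5.05 on DMSO and 5.32, 5.21 and 5.68 on CA arrays. The GP9 groups overlapped, CA array 3 was the highest of the 6, and the change of 0.18 (-0.17 to 0.53, adjusted p = 0.767) was within the spread between wells. It was 0.043 without CA array 3, 0.097 without DMSO array 3, 0.28 without DMSO array 1, 0.28 without CA array 2 and 0.63 with the control covariate described for RAB27B. Each of these genes rests on a single probe set that may bind other transcripts as well.

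The GP9 partners were dim: GP1BA, the ligand-binding chain, had a DMSO mean of 3.46 ± 0.13 (SD, n = 3) with a change of 0.17 (-0.10 to 0.45), and GP5 was below the level needed for a test. CD9, a tetraspanin (3.53 ± 0.10 (SD, n = 3) with DMSO), had a change of 0.04. P2RX1, an ATP-gated ion channel, had a change of -0.06. TREML1, a receptor stored in alpha granules, had the widest interval of the members, 0.31 (-0.25 to 0.87), with DMSO values of 3.63, 3.05 and 3.43 and CA values of 3.69, 3.26 and 4.10. The collagen-binding integrin chain gene ITGA2, the scavenger receptor gene CD36, CD226, CLEC1B, which encodes the podoplanin receptor CLEC-2, and the ADP receptor gene P2RY12 were not measured.

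Granule genes were split between a pair with a clear signal and 7 without one. SRGN encodes serglycin, the proteoglycan that packs basic proteins into the granules of blood cells. It had 11.81, 11.83 and 11.82 on DMSO and 11.86, 11.84 and 11.79 on CA arrays. The groups overlapped, with CA array 3 the lowest, and the change was 0.01 (-0.09 to 0.11, adjusted p = 0.965), or -0.0025 without CA array 1. The other SRGN probe set above the threshold had a change of -0.08 (-0.19 to 0.04).

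RAB27B encodes a small GTPase that takes part in proplatelet formation and in the docking and release of dense granules. Its values were 7.23, 7.13 and 7.20 on DMSO and 7.42, 7.32 and 7.35 on CA arrays. All 3 CA arrays lay above all 3 DMSO arrays. The log2 change was 0.17 (0.05 to 0.30), or 1.13-fold, at an unadjusted p of 0.0119 and an adjusted p of 0.366 by limma, and it was not called. With each array left out in turn the change ran from 0.14 to 0.20 and the adjusted p from 0.403 to 0.624. Without CA array 1, which lay apart, it was 0.15. A measure of transcript integrity and labelling moved with the groups: the mean log2 difference between 3' and 5' probe sets of actin and of the added controls dap and thr was 2.35 to 2.43 on DMSO and 2.05 to 2.23 on CA arrays. With that difference as a covariate the fitted RAB27B change was 0.06 (limma adjusted p = 0.998), in a model where the covariate and the group are hard to separate. The added controls lys and phe, which are not in that measure, differed between CA and DMSO by -0.23 (3') and -0.21 (5') and by -0.24 (3') and -0.18 (5') on the log2 scale. Both of their ends were lower in CA, so their 3' to 5' difference moved less than that of actin, dap and thr. A covariate that included lys and phe was not fitted. The other 2 RAB27B probe sets were too dim to be tested, and on 1 of them the CA arrays lay below the DMSO arrays.

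The remaining granule genes were not above the baseline threshold. PF4, the chemokine platelet factor 4, went from 3.84 ± 0.14 (SD, n = 3) with DMSO to 3.71 ± 0.37 (SD, n = 3) with CA, a change of -0.13 (-0.58 to 0.31) on a probe set that may bind other transcripts. THBS1, which encodes thrombospondin 1, had a change of 0.13 (-0.28 to 0.54). The chemokine gene PPBP, VWF for von Willebrand factor, SELP for P-selectin, F13A1 for the A subunit of factor XIII and MMRN1 for multimerin 1 were not measured.

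Cytoskeletal members held most of the expressed genes, and all 7 had a fitted change above 0 on the arrays as deposited. That sign did not hold in every setting: FERMT3 went to -0.0022 with centring on the array median, -0.033 without DMSO array 1 and -0.020 without CA array 1. TLN1 went to -0.19 without shared probe sets, and FERMT3 and ZYX to -0.080 and -0.14 with the control covariate described for RAB27B. TUBB1 encodes the platelet-restricted beta-1 tubulin of the marginal band. It had 5.55, 5.57 and 5.50 on DMSO and 5.65, 5.77 and 5.67 on CA arrays. The groups did not overlap, and the change was 0.16 (0.04 to 0.28), or 1.12-fold, at an unadjusted p of 0.0169 and an adjusted p of 0.396 by limma. It was not called. A dimmer TUBB1 probe set had a change of 0.08 (-0.18 to 0.34). Without DMSO array 3 or CA array 2, TUBB1 was no longer at an unadjusted p under 0.05 (0.0553 and 0.0554 by limma). Without CA array 1 the change was 0.18. With the 3' to 5' control difference as a covariate it was 0.17, at an unadjusted p of 0.256 by limma.

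RAB27B and TUBB1 are both described as targets of NF-E2, a factor that completes megakaryocyte maturation. The 150 bases before each of their RefSeq start sites (GRCh38.p14, plus strand, 5′ to 3′) are shown because these were the 2 members at an unadjusted p under 0.05, and the array values do not tell which RAB27B start was in use. Capitals mark a GATA word (AGATAA or TGATAA), an ETS word (AGGAAG or CGGAAG) or the NF-E2 and AP-1 word TGAGTCA, searched on both strands.
RAB27B, chr18:54717707-54717856: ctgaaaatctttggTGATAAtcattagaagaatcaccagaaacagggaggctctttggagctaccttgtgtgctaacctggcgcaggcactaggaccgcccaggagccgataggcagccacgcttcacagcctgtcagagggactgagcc
RAB27B, chr18:54828327-54828476: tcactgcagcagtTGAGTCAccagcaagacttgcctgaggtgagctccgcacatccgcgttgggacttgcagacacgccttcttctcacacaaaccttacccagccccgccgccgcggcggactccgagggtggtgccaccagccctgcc
TUBB1, chr20:59019279-59019428: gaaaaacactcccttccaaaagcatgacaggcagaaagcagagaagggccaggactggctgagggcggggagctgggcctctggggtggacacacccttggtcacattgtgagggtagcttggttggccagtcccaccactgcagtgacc
The upstream RAB27B stretch holds TGATAA with its first base 136 bases before the start, and the downstream one holds TGAGTCA from 137 bases before the start. None of these words is in the TUBB1 stretch. Over windows from 250 bases before to 50 after a start, a GATA word was in 16.3% of 35116 windows of all genes, an ETS word in 46.9% and TGAGTCA in 4.95%. By symbol, 27 of the 34 members had 42 windows, of which 10 held a GATA word, 26 an ETS word and 5 TGAGTCA. Of the 12 windows of expressed members 3 held a GATA word, 9 an ETS word and 2 TGAGTCA, and of the 30 windows of the other members, GP1BB included, it was 7, 17 and 3. Windows of 1 gene can overlap, and a match is a run of letters, not a bound site.

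FERMT3 encodes kindlin-3, which together with talin switches integrins to their active state in blood cells. Its values were 7.47, 7.56 and 7.65 on DMSO and 7.64, 7.55 and 7.53 on CA arrays, with a change of 0.01 (-0.14 to 0.16), or -0.020 without CA array 1. TLN1, the talin 1 gene, had 4.98, 5.39 and 5.13 on DMSO and 5.32, 5.33 and 5.37 on CA arrays. The TLN1 groups overlapped through DMSO array 2, and the change was 0.17 (-0.07 to 0.42, adjusted p = 0.668 by limma). Its probe sets disagreed: another one above the threshold had a change of -0.19 (-0.46 to 0.07), and a dimmer one of 0.19 (-0.14 to 0.52). Without DMSO array 2 the TLN1 change was 0.28, at an unadjusted p of 0.00518 and an adjusted p of 0.487 by limma, and without DMSO array 1 it was 0.080, at an unadjusted p of 0.388.

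VCL encodes vinculin and ZYX encodes zyxin, both of focal adhesions. VCL had 10.14, 10.21 and 10.14 on DMSO and 10.20, 10.17 and 10.17 on CA arrays, and its change of 0.02 (-0.09 to 0.12) was smaller than the spread between wells. ZYX had 5.69, 5.84 and 5.66 on DMSO and 6.17, 5.72 and 5.74 on CA arrays. Its groups overlapped, CA array 1 stood highest, and the change of 0.15 (-0.16 to 0.45) was 0.00015 without that array. ARHGAP6, which encodes a GTPase-activating protein, had 9.20, 9.26 and 9.21 on DMSO and 9.27, 9.29 and 9.28 on CA arrays. All 3 CA values lay above the DMSO values by a narrow margin, and the change was 0.06 (-0.04 to 0.15, adjusted p = 0.735 by limma). MYL9, a regulatory myosin light chain gene, was just under the threshold on its brighter probe set, at 4.32 ± 0.03 (SD, n = 3) with a change of 0.04. VCL, ARHGAP6 and MYL9 each have a dimmer probe set that was not tested, with DMSO means of 2.49, 2.51 and 2.69.

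**Figure D2:**
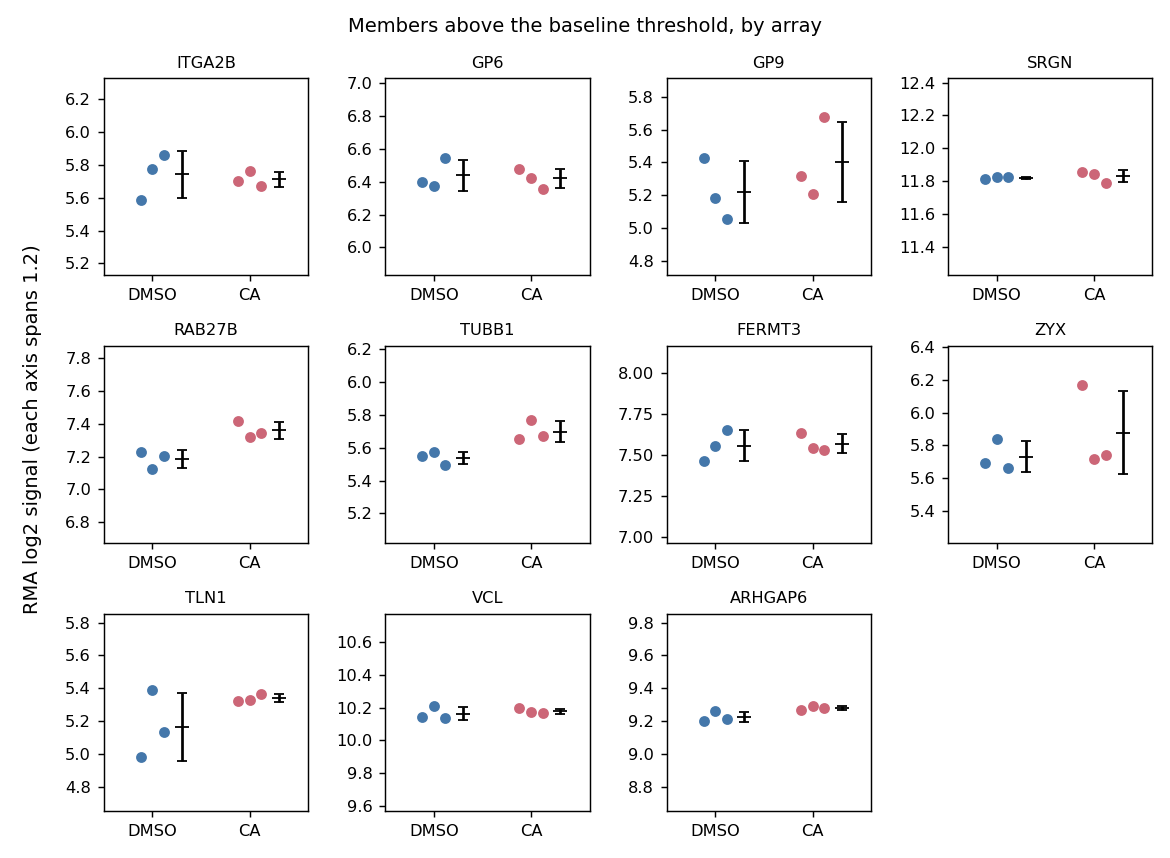
RMA log2 signal of the 11 expressed members on each of the 3 DMSO (blue) and 3 CA (red) arrays, 1 panel per gene with vertical axes of equal span, and the mean with its SD (n = 3) in black beside each group. CA and DMSO points are separate only for RAB27B, TUBB1 and, narrowly, ARHGAP6, and the high CA point of ZYX is array 1.

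The 3 signalling adaptors were all under the threshold. LAT, the scaffold used by the collagen receptor and by T cell receptors, had a change of 0.18 (-0.06 to 0.42). PLEK, which encodes pleckstrin, the main substrate of protein kinase C in platelets, had a change of 0.04 (-0.25 to 0.33). VAV3, a guanine nucleotide exchange factor gene, was not measured. In all, 12 members with 22 probe sets were not measured, with values between 1.42 and 3.49 on the 6 arrays.

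The roles are set side by side by their medians. The median log2 change was 0.04 over 8 measured receptors, 0.07 over 4 granule genes, 0.06 over 7 cytoskeletal genes and 0.11 over 2 signalling adaptors, against -0.01 over all measured genes. Without CA array 1, which lay apart, the medians were 0.075, 0.059, 0.028 and 0.046 in that order. Fitted changes were above 0 for 5 of 8 receptors, 3 of 4 granule genes, 7 of 7 cytoskeletal genes and 2 of 2 adaptors, which is 17 of 21 members, where 43.5% of all measured genes had a fitted change above 0. The 12 members not measured are outside this count. With no filter, ITGA2, PPBP and F13A1 of these had a fitted change above 0 and the others below 0, all on dim probe sets. All measured members but RAB27B and TUBB1 had an interval that includes 0. CA arrays lay wholly above DMSO arrays for 3 of 21 members, all of them expressed ones (RAB27B, TUBB1 and ARHGAP6), and wholly below for 0. Over all measured genes 6.14% lay wholly above and 9.95% wholly below. Differences between roles were not tested, since genes are not replicates of a role.

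**Figure D3:**
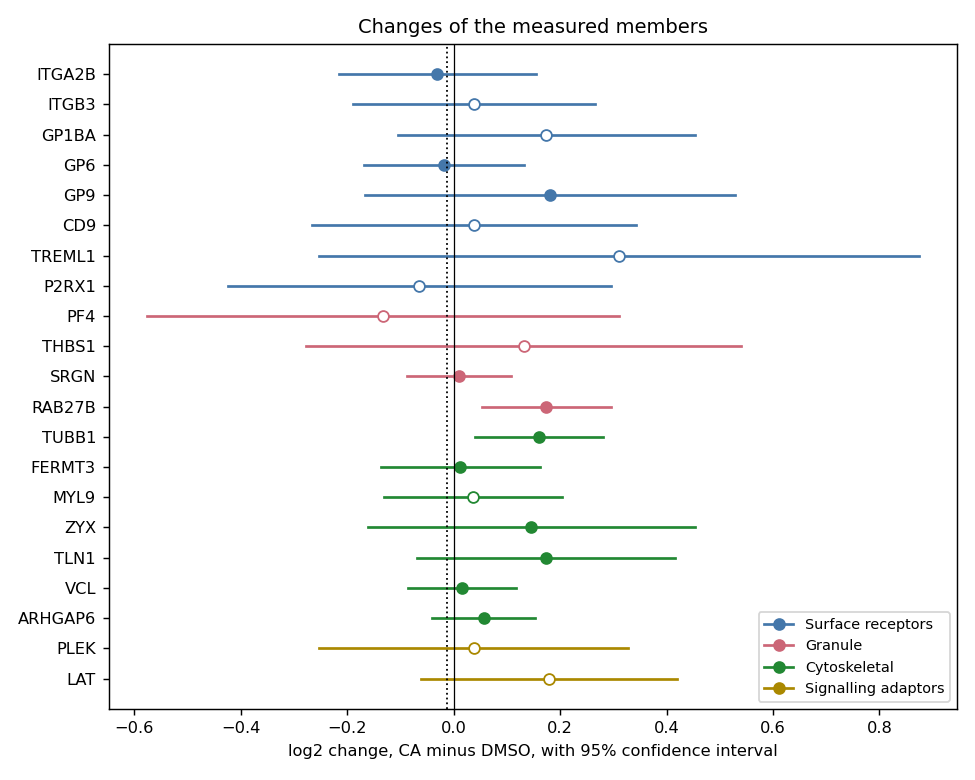
Log2 change (CA minus DMSO) of the 21 measured members, with 95% confidence intervals as lines, coloured by role, filled for the 11 expressed members and open for the others. The dotted line marks the median of all measured genes, -0.01, and the intervals of RAB27B and TUBB1 alone do not include 0.

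The overall level of the arrays matters for changes of this size. Scaling to the 3' probe sets of the added polyadenylated controls moves the median of all measured genes from -0.01 to 0.18, and on that scale ITGA2B and GP6 were higher in CA, at 0.17 and 0.18. On that scale 5 members were called by limma, RAB27B, TUBB1, TLN1, LAT and ARHGAP6, but so were 1473 of the 12810 measured genes. The RMA values used here can show only change relative to the remaining genes on the array.

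Other genes of the same programme were taken from 4 lists. These lists were drawn up with earlier results of these data known, so a share within a list is a description and not a test. Of 13 measured transcription factors of the lineage 1 was called, upward: GFI1B, a repressor needed for platelet and red cell formation. It had 7.90, 7.93 and 8.02 on DMSO and 8.59, 8.51 and 8.46 on CA arrays, a change of 0.57 (0.43 to 0.70, adjusted p = 0.0437 by limma). In each of the 6 fits with an array left out, whichever array it was, GFI1B was not called, at adjusted p of 0.135 to 0.287, while its change stayed between 0.53 and 0.60. Those 6 fits called only 1 or 2 of the 12810 measured genes each. In them the unadjusted p of GFI1B was 8.4e-05 to 0.00028 (limma). With the 3' to 5' control difference as a covariate the GFI1B change was 0.42 (adjusted p = 0.787 by limma). With the replicate number as a block it was 0.57 again, at an adjusted p of 0.407 (limma). Both of these fits called 0 genes. A further 4 factors, chosen after their values were seen, were at an unadjusted p under 0.05, all with higher values in CA: LMO2 at 0.36, NFE2 at 0.23, TAL1 at 0.22 and GATA2 at 0.18, with adjusted p of 0.0997 to 0.361 by limma. Letting the variance prior vary with signal added these 4 to the calls, in a fit that called 157 of the 12810 measured genes in place of 11. The 5 factors at an unadjusted p under 0.05 were 38.5% of the 13, against 8.61% of all measured genes, a share that the choice of list may have raised. GATA1, the central factor of the lineage, had a change of 0.05 (-0.13 to 0.23). Of the 13 factors 6 had a fitted change above 0 and 7 below.

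Of 22 other measured platelet receptors and signalling proteins 0 were called by limma, and 4 (18.2%, against 8.61% of all measured genes) were at an unadjusted p under 0.05. Those with the smallest p were LCP2, the SLP-76 adaptor that works beside LAT, at 0.32 (SE 0.07), P2RY1, an ADP receptor, at 0.19 (SE 0.05), and JAK2, the kinase of the thrombopoietin receptor, at 0.28 (SE 0.07). Their CA arrays all lay above their DMSO arrays, and their limma adjusted p lay between 0.247 and 0.331. P2RY1 was among the 157 genes called with the signal-dependent prior. The other one was the kinase gene SYK, at -0.10.

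Genes of granule assembly and release gave 0 calls by limma among 23 measured and 1 (4.35%) at an unadjusted p under 0.05. With the smallest p in this list, VPS16, a subunit of vesicle tethering complexes, had -0.11 (adjusted p = 0.495), HPS4, of a complex for lysosome-related organelles, -0.12, and AP3B1, an adaptor subunit of the same pathway, 0.09. Other cytoskeletal genes of proplatelets had 22 measured, with 0 calls by limma and 0 at unadjusted p below 0.05. Their median was -0.03, against 0.06 for the 7 cytoskeletal members. The beta tubulin gene TUBB had a change of 0.07, ACTB, a cytoplasmic actin gene, of 0.06 and the formin gene DIAPH1 of -0.07.

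**Figure D4:**
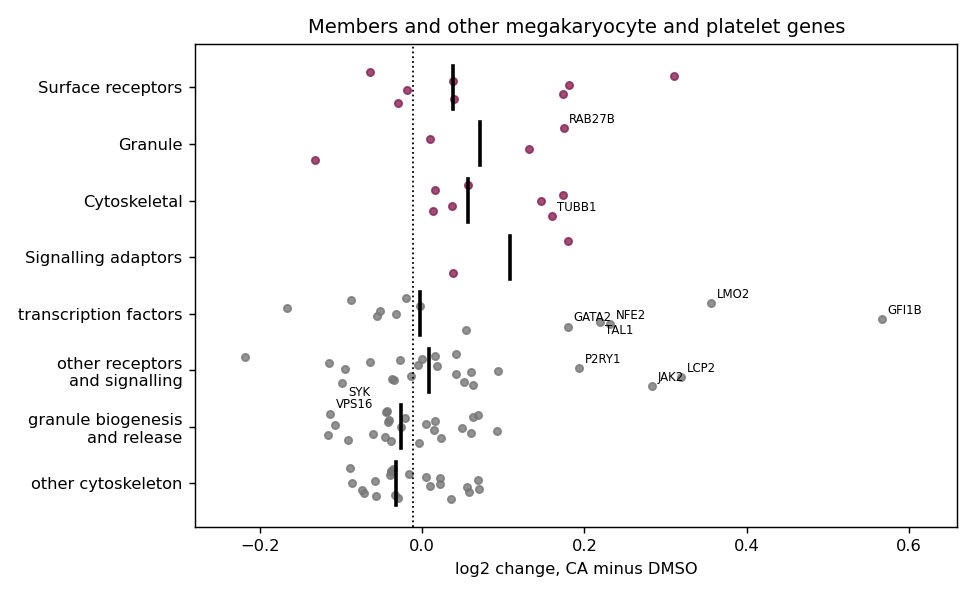
Log2 changes (CA minus DMSO, horizontal axis) of the measured members by role (purple) and of 4 lists of other megakaryocyte and platelet genes (grey), with the median of each group as a black bar and genes at an unadjusted p under 0.05 named. The dotted line is the median of all measured genes, -0.01; the points farthest to the right are GFI1B at 0.57 and LMO2 at 0.36 in the transcription factor list.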

How the data were processed

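Expression in K562 cells was measured on 3 DMSO and 3 CA arrays of the Affymetrix U133 Plus type, from 100 ng of total RNA per array. The authors deposited log2 values for 54675 probe sets, made with RMA in the affy package per the submitters' processing notes, with no version given. RMA sets the arrays to a common level and compresses small changes of dim probe sets. Left out were 62 control probe sets. Testing was limited to probe sets whose 6-array mean reached 3.49, the median of such means, and the brightest tested probe set with 1 symbol stood for its gene. CA was compared with DMSO by limma 3.58.1 in R 4.3.3 (lmFit and eBayes), 2-sided, with no block, and p values were adjusted by Benjamini-Hochberg. Positive changes are higher in CA. Intervals are from the model, and the 3 arrays a group limit the precision (median SE 0.07). On simulated data of this size the test recovered 60 of 100 changes of 0.5 and 93 of 100 changes of 1, both within 1 simulation that also made 12 false calls among 27307 probe sets. In the real data 26 of 27307 probe sets were called, and with fewer calls the Benjamini-Hochberg cut-off is stricter than in the simulation. The simulation also shuffled the SDs over probe sets, so its rates are not the power for the members. The same fit was run under the alternatives given at the end. Per-array values were named for members expressed at baseline, at an unadjusted p under 0.05 or without overlap, and other lists by their called genes or up to 3 with the smallest p. Members and lists were chosen with earlier results of these data known. All 33 matched members were found in RefSeq by gene ID. The labels do not say that replicate numbers shared by the groups pair the wells. Deviations of same-numbered arrays correlated at -0.07, 0.01 and 0.06, where arrays of unlike number ran from -0.11 to 0.09. Correlations of this size, from 3 arrays a group, cannot decide whether wells were paired. The promoter sequences are from RefSeq (GRCh38.p14), and the files themselves hold no coordinates.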

Additional observations from a re-analysis of the deposited data

How the results depend on the processing

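With 3 arrays a group the median SE of a log2 change was 0.10 over the measured members and 0.06 over all genes. The count of called members was 0 in 17 of 18 alternatives and 5 with 3' control scaling. Some of those 17 called almost no genes of any kind: 0 without shared probe sets and with the control covariate, 2 with no filter, and 1 or 2 with an array left out. In such fits a count of 0 says little about the members. Members at an unadjusted p under 0.05 numbered 1 with the filter at the 75th percentile, with the mean over all tested probe sets and with 5' control scaling, 15 with 3' control scaling, and 1 to 4 with an array left out (4 without DMSO array 2, 1 without DMSO array 3). Expressed members numbered 5 at the 99th percentile, 17 above the median of all probe sets and 6 without shared probe sets, and 11 in the other settings. For the other lists the count of 1 became 6 with the signal-dependent prior, 3 with the filter at the 75th percentile, 17 with 3' control scaling and 0 with no filter, without shared probe sets, with centring, with the replicate block, with the control covariate and in the 6 fits with an array left out. With the replicate number as a block, which the labels do not say pairs the wells, 0 genes were called.

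The 3' control scaling moved the median change of receptors to 0.23, of granule genes to 0.27, of cytoskeletal genes to 0.25 and of adaptors to 0.30. The covariate moved the receptor median to 0.31, the granule median to -0.0033 and the adaptor median to -0.045, and 5' control scaling the cytoskeletal one to 0.099. With no filter the granule median was 0.010, the receptor median -0.011 over 14 genes and the adaptor median 0.037. With the filter at the 75th percentile 1 receptor was left, at -0.018. With an array left out the medians ran from 0.027 to 0.099 for receptors, 0.0083 (without DMSO array 3) to 0.11 for granule genes, 0.028 (without CA array 1) to 0.10 (without CA array 3) for cytoskeletal genes and 0.043 to 0.16 for adaptors.

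Some members turned sign. Control scaling and centring shift every gene by the same amount, so turns under them follow from that shift. ITGA2B became 0.0098 with the mean over probe sets, 0.17 with 3' and 0.012 with 5' control scaling, and ran from -0.11 to 0.030 with an array left out. GP6 became 0.18 with 3' and 0.024 with 5' control scaling and ran from -0.052 to 0.035. SRGN became -0.033 with the mean over probe sets, -0.0048 with centring and -0.065 with the covariate, and ran from -0.0025 to 0.030. FERMT3 became -0.0022 with centring and -0.080 with the covariate, and ran from -0.033 to 0.060. ZYX became -0.14 with the covariate, and TLN1 -0.19 without shared probe sets, where another probe set stands for it. The cause of turns with the covariate or an array left out was not tested.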
